A study of Mus musculus with 12 samples.

Results

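The linker histones described here are the H1 genes that mammalian somatic cells use, taken by symbol from the annotated count tables. There were 7 of them among the 52654 genes complete in every table. H1fx and H1f0 are replication-independent. Hist1h1a, Hist1h1b, Hist1h1c, Hist1h1d and Hist1h1e are replication-dependent and lie in the large histone cluster. Of the 7, 6 passed the low-count filter, which Hist1h1a did not, and 13340 genes in all passed it. The family was chosen after the co-culture values of H1fx had been seen. Every comparison that uses those values is therefore described below without a test for H1fx. The tests of the other members, and that of H1fx in isolated cells, are not independent evidence.

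RNA was sequenced from MC3T3-E1 subclone 14 cells, a clonal line of mouse calvarial preosteoblasts, grown for 7 days on titanium discs. All groups had osteogenic medium, in which ascorbic acid was at 5 µg/mL and β-glycerophosphate at 7 mM. The groups are called Co-culture Nano, Co-culture Control, Isolated Nano and Isolated Control, where Nano is titanium with nanotopography and Control is the control surface; each of the 4 had 3 libraries that the series calls biological triplicates. In the co-culture groups, inserts with 0.4 µm pores carried osteoclasts derived from the macrophage line RAW 264.7 with 50 ng/mL RANKL, and stood over the MC3T3-E1 cells for the last 2 days. The isolated groups had no insert, no osteoclasts and no RANKL recorded, and no group had the insert or RANKL alone, so these parts of the co-culture cannot be told apart. Neither surface is described further in the labels.

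Linker histones bind the nucleosome where DNA enters and leaves it, and help to fold chromatin. The replication-dependent H1 genes are read mainly in S phase, when DNA is copied, and their mRNA usually ends in a conserved stem-loop in place of a poly(A) tail. H1f0 is read outside S phase, has polyadenylated mRNA and is known to build up as cells leave the cell cycle and differentiate. H1fx, also called H1.10, is an intronless, replication-independent H1 that is more distant in sequence from the others.

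The 4 measurable replication-dependent H1 genes were lowest in Co-culture Nano and highest in Isolated Nano. Nanotopography thus went with higher levels in isolated cells and lower levels in co-culture, and the difference between these effects passed the test for each of the 4 genes. The surface calls were less stable. In isolated cells all 4 were lost on leaving out any one of 3 single libraries, and in co-culture that of Hist1h1c alone was left after correction for G+C content and length with RefSeq gene models. H1fx was near the detection limit in both co-culture groups. H1f0 had the narrowest range of the 6 tested members, with group means between 194 and 285 CPM (counts scaled to the library size after TMM).

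The genes lie on 3 chromosomes. Each gene has a single exon in GENCODE M21, whose mm10 (GRCm38) coordinates are used. H1fx (ENSMUSG00000044927.6) lies at chr6:87980421-87981637 on the minus strand and H1f0 (ENSMUSG00000096210.2) at chr15:79028450-79030504 on the plus strand. Hist1h1a (ENSMUSG00000049539.3) lies at chr13:23763666-23764406 and Hist1h1c (ENSMUSG00000036181.2) at chr13:23738808-23740367, both on the plus strand. Hist1h1d (ENSMUSG00000052565.7) lies at chr13:23553262-23560686 on the plus strand. Hist1h1b (ENSMUSG00000058773.2) lies at chr13:21779883-21780625 and Hist1h1e (ENSMUSG00000051627.3) at chr13:23620629-23622558, both on the minus strand.

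The stretches below lie upstream of the start sites (RefSeq, GRCm38.p6, gene strand, read toward the start). They show motifs of the replication-dependent H1 genes beside H1f0 and H1fx, whose windows lie differently against their M21 starts. Capitals mark matches to the H1 box AAACACA, the CCAAT box CCAAT, the TATA box TATAAA and the GC box GGGCGG, each searched on both strands, so that ATTGG and CCGCCC are matches on the other strand. The first 4 stretches hold the 130 bases next to the start, at chr13:21780626-21780755 (minus strand), chr13:23738677-23738806 (plus strand), chr13:23622559-23622688 (minus strand) and chr15:79028082-79028211 (plus strand). For H1fx, whose M21 exon covers the nearest 155 bases, the 95 bases farther out are shown, at chr6:87981638-87981732 on the minus strand.
Hist1h1b: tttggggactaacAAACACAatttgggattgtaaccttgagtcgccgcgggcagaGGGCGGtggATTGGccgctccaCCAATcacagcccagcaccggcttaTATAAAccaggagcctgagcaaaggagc
Hist1h1c: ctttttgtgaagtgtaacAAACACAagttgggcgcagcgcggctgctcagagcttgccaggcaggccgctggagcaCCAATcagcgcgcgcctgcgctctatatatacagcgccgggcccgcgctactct
Hist1h1e: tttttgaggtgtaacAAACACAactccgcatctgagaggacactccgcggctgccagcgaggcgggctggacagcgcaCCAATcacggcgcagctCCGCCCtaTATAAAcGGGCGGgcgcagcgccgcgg
H1f0: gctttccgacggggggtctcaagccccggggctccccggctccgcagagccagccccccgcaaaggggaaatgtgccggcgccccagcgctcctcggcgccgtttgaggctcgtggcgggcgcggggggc
H1fx: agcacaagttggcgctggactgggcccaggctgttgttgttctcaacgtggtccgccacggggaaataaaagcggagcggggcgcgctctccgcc

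Within the 250 bases before the RefSeq start, Hist1h1b, Hist1h1c, Hist1h1d and Hist1h1e each held AAACACA on the gene strand. It lay 112 to 122 bases before that start, followed by CCAAT at 51 to 54 bases. Hist1h1a held CCAAT and no AAACACA, and neither motif was found in the RefSeq windows of H1f0 or H1fx. The H1f0 window ends at chr15:79028211, upstream of its M21 start at chr15:79028450, and the bases between were not searched. In the H1fx window the nearest 155 bases lie within its M21 exon. All 250 bases of the Hist1h1d window, with its motifs, lie within the longer M21 exon of that gene, so no stretch of it is printed. Of 27025 RefSeq promoters of this length, 6.22% held AAACACA on either strand and 34.5% held CCAAT. The promoters of H1fx and H1f0 were 75.2% and 74.4% G+C, against 47.6% to 54.8% for the Hist1h1 genes.

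At the other end of the gene, a search of the transcripts for the consensus of the histone mRNA stem-loop found one form, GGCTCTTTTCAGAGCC, in Hist1h1c, Hist1h1d and Hist1h1e. It lay 24 bases after the coding sequence in Hist1h1c, 31 in Hist1h1d and 40 in Hist1h1e. The consensus occurred in 45 of 21877 protein-coding genes (0.206%) and in 38 of 61 replication-dependent core histone genes (62.3%). It was not found in the annotated transcripts of H1fx, H1f0, Hist1h1a or Hist1h1b, and the M21 transcript of Hist1h1b ends at its last coding base. The transcripts of H1fx, H1f0 and Hist1h1c hold a poly(A) signal in their last 50 bases.

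The 3 genes with the stem-loop also share long identical stretches, up to 149 bases between Hist1h1c and Hist1h1d, 146 between Hist1h1c and Hist1h1e and 122 between Hist1h1d and Hist1h1e. How the authors' counting placed reads that fit several of these genes is not given in the sources used here, so the split among them is uncertain. The M21 exon of Hist1h1e overlaps a core histone gene, Hist1h2be, on the same strand. Antisense genes overlap the exons of H1fx (Gm5577) and H1f0 (Gm49544), and whether the counting used strand is not given in the sources used here.

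Over all genes, library totals ran from 5866842 to 9207831 counts, and several facts of the libraries moved with the groups. The share of counts in the ribosomal-RNA-linked predicted genes Gm26917 and Gm42418 was 0.636 ± 0.248% in Co-culture Nano, 1.84 ± 0.289% in Co-culture Control, 6.27 ± 2.38% in Isolated Nano and 3.81 ± 1.44% in Isolated Control (SD, n = 3 each). Mitochondrial rRNA held 11.6 ± 3.75%, 6.49 ± 0.304%, 5.14 ± 1.05% and 8.17 ± 1.55% in that order of groups. Genes also shifted by base composition: the 488 tested genes over 60% G+C had a median log2 fold change of -1.34 for co-culture on nanotopography, against 1.01 for the 999 genes under 40%. Osteoblast markers held 5.14% of counts in Co-culture Nano, 7.86% in Co-culture Control, 8.79% in Isolated Nano and 9.10% in Isolated Control, and none of the 11 was at 0 in any group. Of the 11, 5 were lower and 2 higher in co-culture on nanotopography, beside 30.4% lower and 28.7% higher of all tested genes. On nanotopography in co-culture 6 were lower and 1 higher, beside 23.3% and 18.6% of all tested genes. The 18 macrophage and osteoclast markers summed to 183 to 259 CPM in Co-culture Nano, 193 to 207 in Co-culture Control, 182 to 203 in Isolated Nano and 193 to 202 in Isolated Control, of which the protease gene Ctsk made up 183, 171, 167 and 169 CPM as group means. Beside the same shares of all tested genes, 4 of the 7 tested were higher and 1 lower in co-culture on nanotopography (median log2 fold change 1.71). On nanotopography in co-culture, 4 of the 7 were higher and none lower. Among them, Lyz2 had 2.15 ± 0.42 and Csf1r 1.71 ± 0.45 in co-culture on nanotopography (edgeR adjusted p = 3.61e-04 and 0.00388), and Atp6v0d2 had 73 counts in Co-culture Nano, 7 in Co-culture Control and 0 in the isolated groups. The leukocyte gene Ptprc had 44 counts over the 3 libraries in Co-culture Nano, 2 in Co-culture Control and 0 in the isolated groups, whose 3 libraries then allow up to 3 counts each. Calcr was at 0 in all 4 groups. The part of these shifts in the linker histone results was not tested, except for base composition, for which adjusted values follow.

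**Figure D1:**
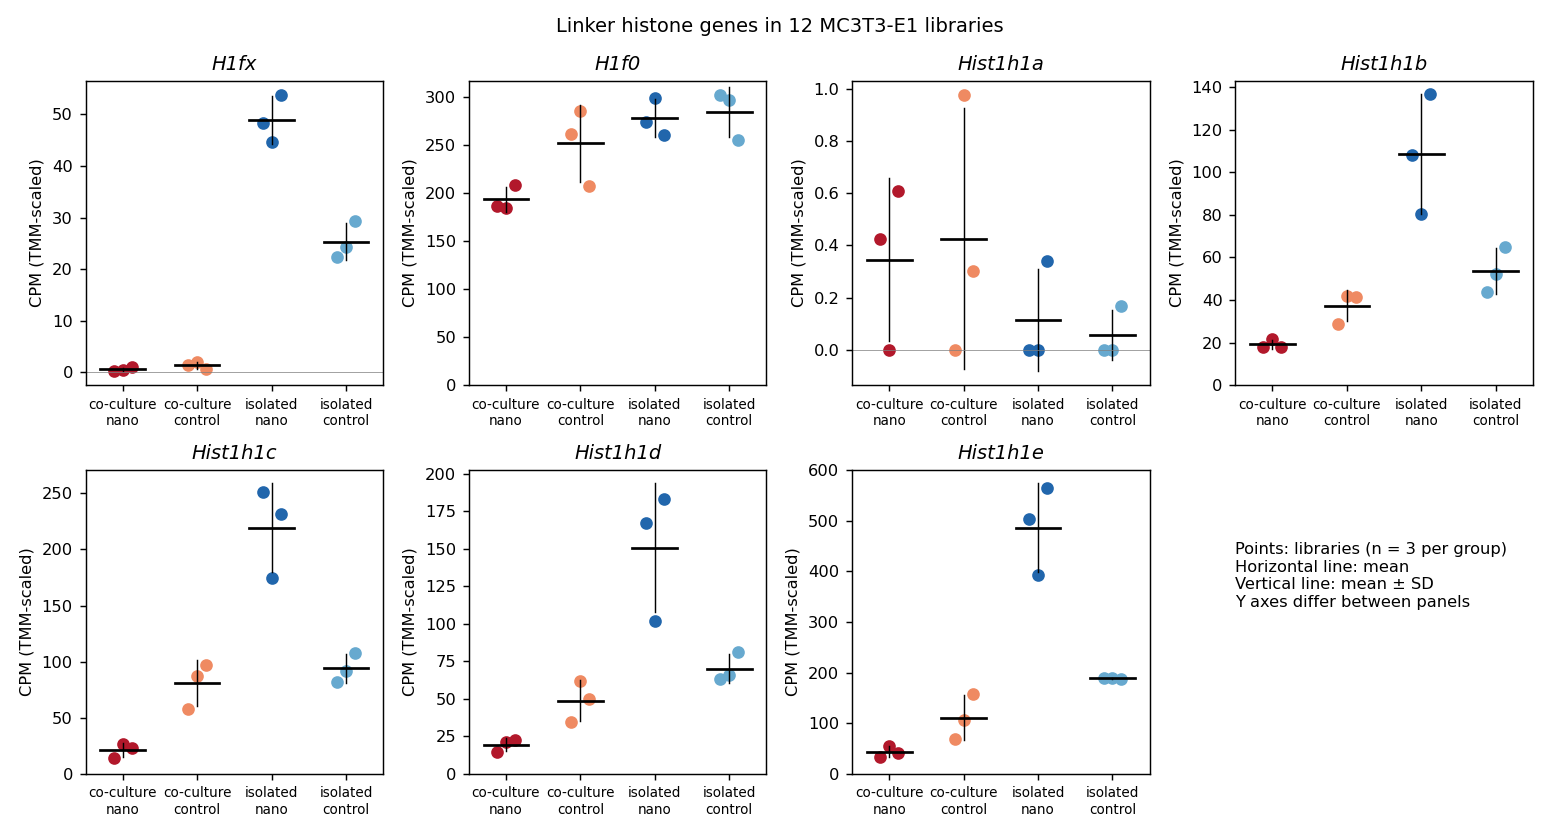
CPM on TMM-scaled library sizes of the 7 linker histone genes in each library (points), with the group mean (horizontal line) and SD (vertical line, n = 3); groups run from Co-culture Nano to Isolated Control, and the y axes differ. The Hist1h1b, Hist1h1c, Hist1h1d and Hist1h1e panels share one order of groups, H1fx is near 0 in both co-culture groups, and Hist1h1a has at most 7 counts in any library.

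H1fx had 0.284, 0.382 and 0.913 CPM in Co-culture Nano and 1.41, 1.96 and 0.603 CPM in Co-culture Control. It had 48.4, 44.6 and 53.8 CPM in Isolated Nano and 22.3, 24.3 and 29.3 CPM in Isolated Control. In counts, the co-culture libraries held 2, 3 and 6 on nanotopography and 13, 14 and 4 on control titanium, where no isolated library held fewer than 171. Every co-culture library was thus below every isolated library. The log2 fold change of co-culture over isolated cells was -6.53 ± 0.29 on nanotopography and -4.21 ± 0.25 on control titanium (SE), given as the description that led to the choice of this family. These were the 7th and 5th lowest of the 13340 genes tested.

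The H1fx transcript is 71.3% G+C, and the 16 tested genes over 68%, a bound set after its composition was seen, had median log2 fold changes of -4.53 on nanotopography and -2.62 on control titanium. After each library's trend with G+C content and length was removed, the log2 fold change of H1fx was -3.64 on nanotopography and -2.88 on control titanium. The antisense gene Gm5577, which overlaps 237 exonic bases together with the miRNA gene Gm47286, had 7.74, 4.05, 6.83 and 9.48 CPM as means of Co-culture Nano, Co-culture Control, Isolated Nano and Isolated Control. It did not share the near loss of counts seen in H1fx.

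H1f0 had 187, 185 and 209 CPM in Co-culture Nano and 262, 286 and 208 CPM in Co-culture Control. It had 274, 299.7 and 261 CPM in Isolated Nano and 302, 297 and 255 CPM in Isolated Control. All 3 Co-culture Nano libraries were below all isolated libraries, while the other 3 groups overlapped one another and the lowest Co-culture Control library lay within Co-culture Nano.

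Hist1h1e, the most abundant replication-dependent H1 per kilobase of RefSeq gene length in every group, had 33.6, 55.6 and 41.2 CPM in Co-culture Nano and 67.8, 107 and 157 CPM in Co-culture Control. It had 504, 392 and 564 CPM in Isolated Nano and 189, 189 and 188 CPM in Isolated Control. The 4 groups did not overlap.

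Hist1h1c had 14.0, 26.3 and 22.7 CPM in Co-culture Nano and 57.7, 86.9 and 97.2 CPM in Co-culture Control. It had 251, 175 and 232 CPM in Isolated Nano and 81.8, 91.9 and 108 CPM in Isolated Control. Its 2 control titanium groups overlapped, and the nanotopography groups lay below and above them.

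Hist1h1d had 14.5, 21.4 and 22.2 CPM in Co-culture Nano and 34.4, 61.5 and 49.7 CPM in Co-culture Control. It had 167, 102 and 183 CPM in Isolated Nano and 62.8, 66.1 and 80.8 CPM in Isolated Control. No libraries of different groups overlapped, although the highest co-culture and lowest isolated libraries on control titanium were close.

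Hist1h1b had 17.9, 21.6 and 18.1 CPM in Co-culture Nano and 28.9, 41.8 and 41.3 CPM in Co-culture Control. It had 108, 80.6 and 137 CPM in Isolated Nano and 43.7, 52.1 and 65.1 CPM in Isolated Control. These groups also did not overlap.

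Within Isolated Nano, replicate 2 was the lowest library for Hist1h1b, Hist1h1c, Hist1h1d and Hist1h1e. It also had the fewest Gm26917 and Gm42418 reads, 36575 CPM against 83283 and 68264 CPM in replicates 1 and 3. Over all 12 libraries the log2 CPM of these 4 genes correlated with one another at Pearson's r of 0.96 to 0.99, and with H1f0 at 0.66 to 0.73, as a description of libraries that share their groups and composition.

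Hist1h1a had 3, 0 and 4 counts in Co-culture Nano, 0, 7 and 2 in Co-culture Control, 0, 0 and 2 in Isolated Nano and 0, 0 and 1 in Isolated Control. This H1, known mainly from testis, thymus and spleen, was therefore close to the limit that the depth allows. On control titanium the ratio of depth-scaled counts, co-culture over isolated, was 8.55 with a 95% counting interval of 1.19 to 375, and on nanotopography it was 3.10 with an interval of 0.589 to 30.5; the intervals cover counting error only. Of the H1 genes of testis and oocyte, Hist1h1t had 6, 3, 0 and 1 counts over the libraries of Co-culture Nano, Co-culture Control, Isolated Nano and Isolated Control. Hils1 had 1 count, and H1fnt and H1foo had 0 in all 12 libraries.

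The first comparison asks what co-culture did to the linker histones of cells on nanotopography. In these bulk libraries fewer cells in S phase and less H1 mRNA per cell cannot be told apart. How the libraries were primed, which matters for mRNA without a poly(A) tail, is not given in the sources used here. Its part in these values was not tested. All 4 tested replication-dependent H1 genes and H1f0 fell in co-culture, beside 59.2% of all tested genes that were called, 28.7% higher and 30.4% lower. Hist1h1e changed by -3.48 ± 0.24 on the log2 scale (SE, edgeR quasi-likelihood adjusted p = 1.53e-08), Hist1h1c by -3.38 ± 0.22 (adjusted p = 7.48e-09), Hist1h1d by -2.96 ± 0.23 (adjusted p = 5.15e-08) and Hist1h1b by -2.50 ± 0.20 (adjusted p = 6.00e-08). H1f0 changed by -0.52 ± 0.12 (adjusted p = 0.00129). The 4 replication-dependent genes were among the 159 lowest log2 fold changes of all 13340, whose median was -0.00. With the trend in G+C content and length removed, and the compact RefSeq gene models used for the members (an alternative chosen after seeing the data), the log2 fold changes were -2.05 for Hist1h1e, -1.76 for Hist1h1c, -1.63 for Hist1h1d and -1.62 for Hist1h1b, all still called. With the M21 transcripts they were -3.23, -2.69, -4.02 and -1.61 in that order, so the size of the difference depends on the gene model. The value of H1f0 with its RefSeq model was then -0.21 and its call was lost (adjusted p = 0.179).

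On control titanium the same comparison gave smaller differences. Hist1h1e fell by 0.78 ± 0.22 on the log2 scale in co-culture (SE, edgeR quasi-likelihood adjusted p = 0.0211), and it was the only one of the 5 members tested that passed, beside 19.7% of all tested genes called, 10.9% higher and 8.72% lower. Hist1h1d and Hist1h1b both had -0.53, with SE of 0.22 and 0.19 and edgeR adjusted p of 0.0951 and 0.0612. Hist1h1c had -0.22 ± 0.20 (edgeR adjusted p = 0.466) and H1f0 had -0.18 ± 0.12 (edgeR adjusted p = 0.314). The call of Hist1h1e was lost when replicate 1 or 2 of Co-culture Control, or replicate 1 or 2 of Isolated Control, was left out (adjusted p = 0.0999, 0.0811, 0.0514 and 0.064), with log2 fold changes of -0.51 to -0.78. Hist1h1b passed in 10 of the 24 alternatives, and Hist1h1d in 3, among them the fit of only the groups compared, where Hist1h1b had an adjusted p of 0.0283 and Hist1h1d of 0.0324.

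The surface comparison in isolated cells asks what nanotopography did without osteoclasts. All 4 tested replication-dependent H1 genes and H1fx rose on nanotopography, beside 9.71% of all tested genes called, 4.32% higher and 5.39% lower. Hist1h1e changed by 1.36 ± 0.22 on the log2 scale (SE, edgeR quasi-likelihood adjusted p = 0.00863), Hist1h1c by 1.23 ± 0.20 (adjusted p = 0.00863), Hist1h1d by 1.11 ± 0.21 (adjusted p = 0.0131) and Hist1h1b by 1.02 ± 0.18 (adjusted p = 0.00952). H1fx changed by 0.96 ± 0.17 (adjusted p = 0.00863), and H1f0 did not pass, at -0.03 ± 0.12 (adjusted p = 0.875). The isolated values of H1fx also entered the co-culture fold changes that led to the choice of this family. The test of H1fx is therefore not independent evidence. Calls in this comparison depended on single libraries. Without replicate 1 or 2 of Isolated Control, or replicate 3 of Isolated Nano, 3 genes of the whole table were called and no linker histone was, although their log2 fold changes were still 0.83 to 1.38 and their adjusted p 0.0537 to 0.104. Without replicate 1 of Isolated Nano 65 genes were called, and Hist1h1d was not (adjusted p = 0.0583). With the G+C and length trend removed, H1fx had 0.46 (adjusted p = 0.0546), or 0.49 with its RefSeq gene model (adjusted p = 0.0442).

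In co-culture the surface comparison had the opposite sign. The 4 replication-dependent H1 genes and H1f0 fell on nanotopography, beside 42.0% of all tested genes called, 18.6% higher and 23.3% lower. Hist1h1c changed by -1.93 ± 0.22 on the log2 scale (SE, edgeR quasi-likelihood adjusted p = 2.14e-05), Hist1h1e by -1.34 ± 0.23 (adjusted p = 4.89e-04), Hist1h1d by -1.32 ± 0.23 (adjusted p = 5.56e-04) and Hist1h1b by -0.95 ± 0.20 (adjusted p = 0.00203). For H1f0, at -0.38 ± 0.12 (adjusted p = 0.0183), the libraries of the 2 groups overlapped, and the call was lost without replicate 1 or 2 of Co-culture Control or replicate 1 of Co-culture Nano (adjusted p = 0.0514, 0.106 and 0.0622). H1fx, given as a description, had -1.36 ± 0.49, and its libraries overlapped too. With the G+C and length trend removed and RefSeq gene models, only Hist1h1c was still called, at -0.96 (adjusted p = 7.30e-05). Hist1h1d then had -0.46 (adjusted p = 0.0561), Hist1h1e -0.41 (adjusted p = 0.0741), Hist1h1b -0.34 (adjusted p = 0.135) and H1f0 -0.12 (adjusted p = 0.509), and H1fx was described by -0.30. With the longer M21 transcripts of Hist1h1d and Hist1h1e in the same correction, these 2 genes kept their calls, at -1.98 (adjusted p = 4.65e-04) and -1.13 (adjusted p = 7.99e-04).

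**Figure D2:**
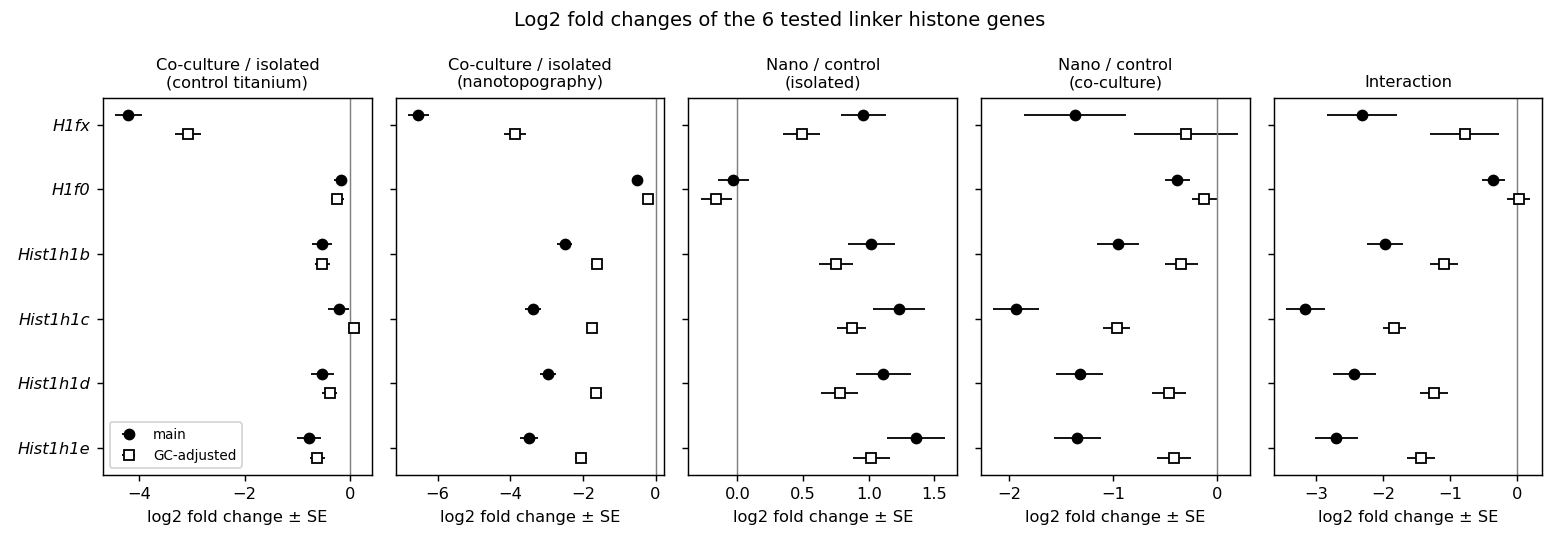
Log2 fold changes with SE of the 6 tested linker histone genes in each comparison, from the fit of all tested genes (filled circles) and after removal of each library's trend with G+C content and length, with RefSeq gene models for these genes (open squares). The x axes differ between panels; for co-culture on nanotopography the replication-dependent genes lie between -3.48 and -2.50 in the main fit and between -2.05 and -1.62 after adjustment, and H1fx has a test only in the panel of isolated cells.

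The interaction compares the effect of co-culture between the surfaces. It was negative and passed the test for all 4 replication-dependent H1 genes, beside 47.8% of all tested genes called, 22.4% positive and 25.4% negative. On the log2 scale Hist1h1c had -3.16 ± 0.29 (SE, edgeR quasi-likelihood adjusted p = 9.27e-06), Hist1h1e -2.70 ± 0.32 (adjusted p = 4.86e-05), Hist1h1d -2.43 ± 0.32 (adjusted p = 7.68e-05) and Hist1h1b -1.97 ± 0.27 (adjusted p = 1.07e-04). H1f0 had -0.35 ± 0.17 (adjusted p = 0.0987), and H1fx, given as a description, had -2.31 ± 0.52. With the G+C and length trend removed and RefSeq gene models, the 4 genes had -1.83, -1.43, -1.24 and -1.09 in the same order and were still called, while H1f0 had 0.03 and H1fx -0.78.

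The make-up of the pool of counted H1 reads was then described per kilobase of RefSeq gene length, which adjusts the 7 genes for length only. How the libraries were primed is not given, and this matters for mRNA without a poly(A) tail. Shares and ranks of H1f0 and H1fx against the replication-dependent genes may therefore not be those of the mRNA in the cells. The trend with G+C content was not removed here. The summed level was 219 ± 29.7 CPM per kb in Co-culture Nano, 474 ± 97.0 in Co-culture Control, 1424 ± 244 in Isolated Nano and 677 ± 35.3 in Isolated Control (SD, n = 3 each). H1f0 made up 39.0 ± 5.44% of it in Co-culture Nano, 24.1 ± 7.40% in Co-culture Control, 8.78 ± 2.29% in Isolated Nano and 18.4 ± 2.54% in Isolated Control. The share of H1f0 was thus highest in the group with the lowest pool and lowest in the group with the highest, while its own mean level was 84.4 to 124 CPM per kb. This order follows by arithmetic, as H1f0 is part of the pool and varied much less than it. The replication-dependent genes made up 60.8 ± 5.46%, 75.6 ± 7.53%, 87.9 ± 2.61% and 78.1 ± 2.22% in the same order of groups.

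In the order of levels per kilobase, H1f0 came first in Co-culture Nano, at 84.4 ± 5.91 CPM per kb, ahead of Hist1h1e at 55.6 ± 14.3, with Hist1h1c, Hist1h1d and Hist1h1b next at 24.2 to 29.0 and not apart beyond their spread. In Co-culture Control Hist1h1e (141 ± 57.1), Hist1h1c (111 ± 28.2) and H1f0 (109.8 ± 17.4) were not apart beyond their spread. In Isolated Nano Hist1h1e led, at 622 ± 112 CPM per kb, followed by Hist1h1c at 303 ± 54.5, and H1f0 at 121 ± 8.65 stood beside Hist1h1b at 137 ± 35.7. In Isolated Control Hist1h1e, at 242 ± 1.01, was followed by Hist1h1c at 129 ± 17.9 and H1f0 at 124 ± 11.2, which did not differ beyond their spread. H1fx was 0.223% of the pool in Co-culture Nano and 0.276% in Co-culture Control, against 3.27% in Isolated Nano and 3.51% in Isolated Control. With M21 transcript lengths, which for Hist1h1d run to 7425 bases against 776 in RefSeq, the share of H1f0 was 59.2%, 42.9%, 18.8% and 34.8% from Co-culture Nano to Isolated Control, in the same order of groups. The order of genes changed with these lengths. H1f0 then led in Co-culture Control, at 123 against 57.2 CPM per kb for Hist1h1e, and in Isolated Control, at 139 against 97.9. In Co-culture Nano Hist1h1b, at 25.8, stood beside Hist1h1e at 22.5. The summed level was 159.6, 289.8, 735 and 399 CPM per kb from Co-culture Nano to Isolated Control.

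**Figure D3:**
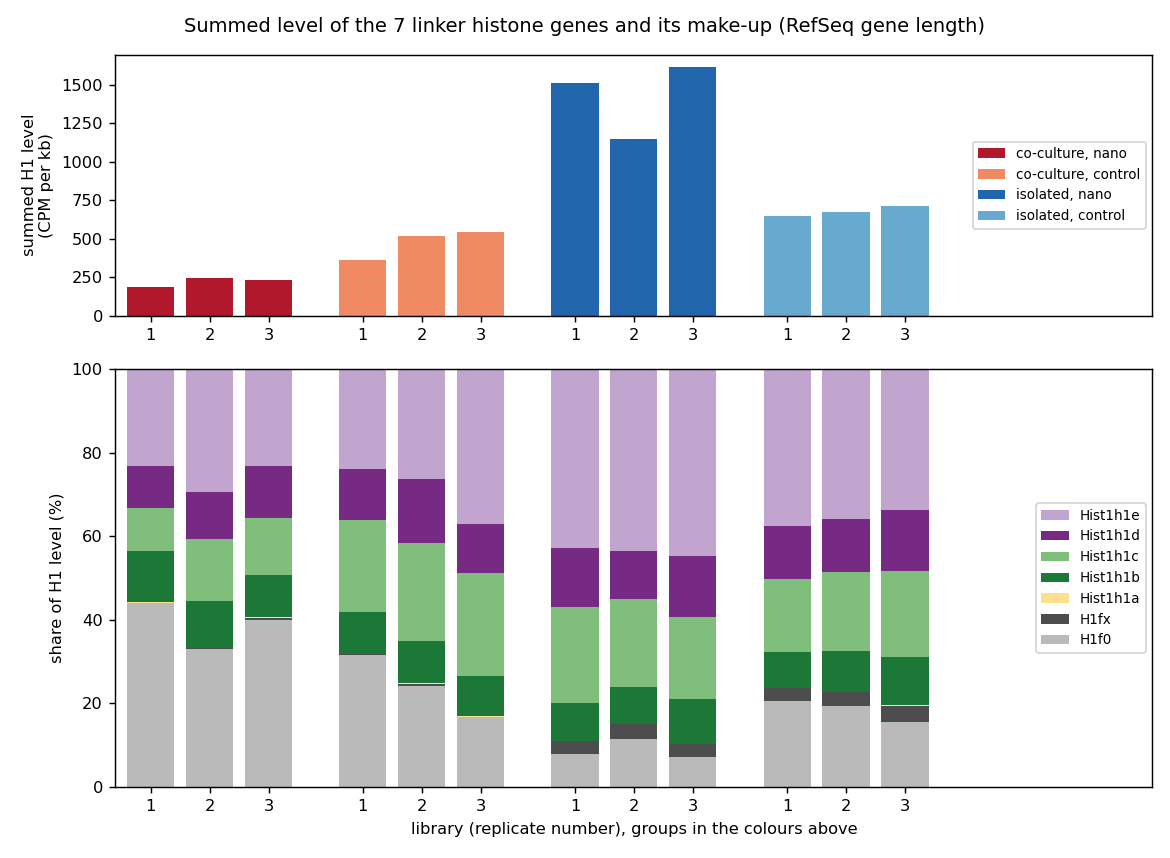
Top: summed level of the 7 linker histone genes in each library, in CPM per kb of RefSeq gene length; bottom: share of each gene in that sum, in percent. Bars are libraries grouped from Co-culture Nano to Isolated Control; the pool averages 219 CPM per kb in the first group and 1424 in the third, and the share of H1f0 (light grey) is 39.0% and 8.78% there.

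The replication-dependent core histones, which form the nucleosome itself, are made at the same time as these H1 proteins, and 42 of 61 listed genes were tested. None of the 42 was called higher and 39 were called lower in co-culture on nanotopography, beside 28.7% and 30.4% of all tested genes. The median log2 fold change of the list was -3.48, beside -3.17 for the 4 H1 genes and -0.00 for all genes. Hist1h2ab had -5.11 ± 0.26 (edgeR adjusted p = 3.54e-10) and Hist2h2ac -5.78 ± 0.35 (edgeR adjusted p = 3.49e-09). On control titanium 18 were lower in co-culture and none was higher, beside 8.72% and 10.9% of all tested genes. The median of the list was -0.99 there, beside -0.53 for the H1 genes. Some core histones there went far lower than any of the 4 H1 genes, among them Hist1h3b at -4.11 ± 0.44 (edgeR adjusted p = 6.44e-06).

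In isolated cells, 27 of the 42 core histones were called higher on nanotopography and none lower, beside 4.32% and 5.39% of all tested genes. The median of the list was 1.17, which is also the median of the 4 H1 genes. Hist1h2bm had 1.56 ± 0.19 (edgeR adjusted p = 0.002). In co-culture 13 of the 42 were lower on nanotopography and none higher, beside 23.3% and 18.6% of all tested genes. The median of the list was -1.01, beside -1.33 for the H1 genes. Summed over the list, core histones had 56.6, 80.8 and 60.4 CPM in Co-culture Nano, 109, 171 and 189.6 in Co-culture Control, 714, 561 and 898 in Isolated Nano and 276, 318 and 425 in Isolated Control. The groups did not overlap, and their order was that of the replication-dependent H1 genes. The list has a median G+C of 57.8%. In the M21 correction for G+C and length, applied to the lists as an alternative added after seeing the data, 38 were lower in co-culture on nanotopography (median -2.32), 21 were higher on nanotopography in isolated cells (median 0.90) and 7 were lower on nanotopography in co-culture (median -0.35). With that correction 5260, 727 and 2445 of all 13340 tested genes were called in these comparisons, in that order and in either direction.

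**Figure D4:**
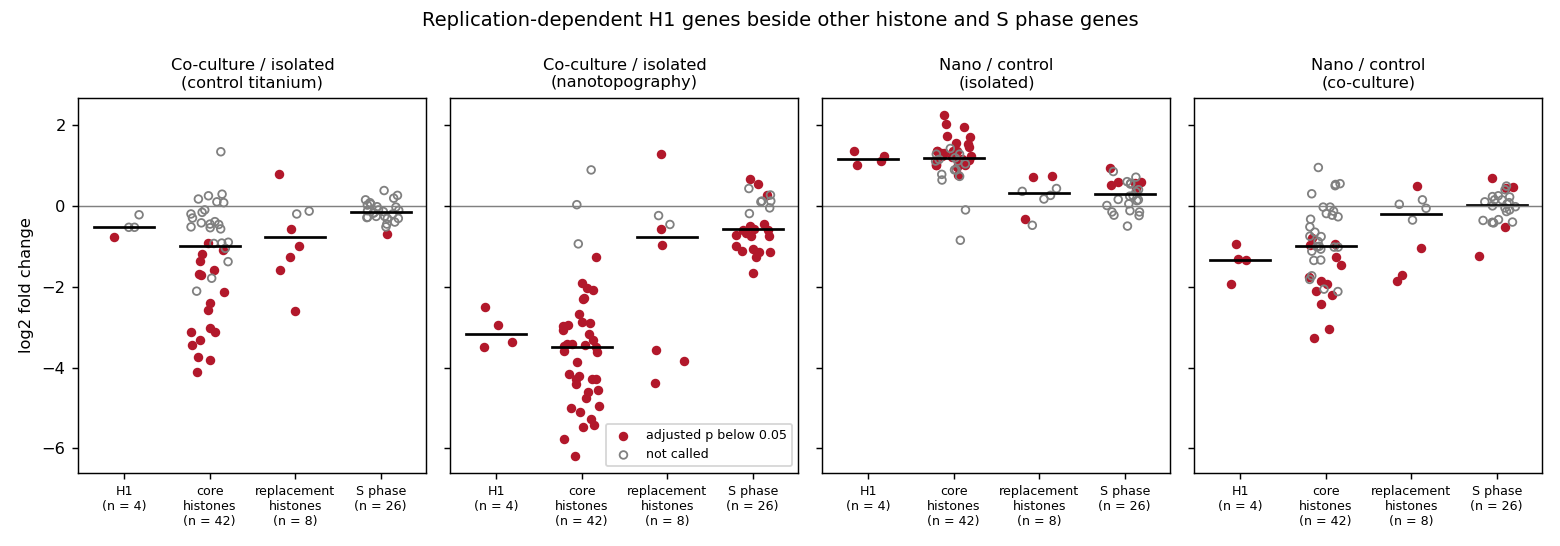
Log2 fold change of each tested gene in 4 groups of genes, for the 4 comparisons between groups of libraries; filled red points passed the test at an adjusted p below 0.05, open grey points did not, and the black line is the median. H1 stands for Hist1h1b, Hist1h1c, Hist1h1d and Hist1h1e; for co-culture on nanotopography their median is -3.17, that of core histones -3.48, of replacement histones -0.77 and of S phase genes -0.58.

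Genes of S phase itself moved less. Of 26 genes of DNA replication, 3 were higher and 16 lower in co-culture on nanotopography, beside 28.7% and 30.4% of all tested genes. The median log2 fold change of the list was -0.58. After that correction 0 were higher and 13 lower, with a median of -0.40. The replicative helicase subunit Mcm2 had -1.15 ± 0.12 (edgeR adjusted p = 8.19e-07) and the flap nuclease Fen1 had -1.11 ± 0.21 (edgeR adjusted p = 3.18e-04). On control titanium 1 was lower in co-culture, beside 8.72% of all tested genes. It was the ribonucleotide reductase subunit Rrm2, at -0.69 ± 0.18 (edgeR adjusted p = 0.0115). In isolated cells 6 were higher and none lower on nanotopography (median 0.30), beside 4.32% and 5.39% of all tested genes. Among the 6 was the DNA ligase Lig1 at 0.60 ± 0.12 (edgeR adjusted p = 0.0149). In co-culture 3 were higher and 2 lower on nanotopography (median 0.02), beside 18.6% and 23.3% of all tested genes. After the correction these 2 counts were 0 and 1. Of 16 genes of mitosis, 6 were higher and 6 lower in co-culture on nanotopography, beside 28.7% and 30.4% of all tested genes. After the correction 0 were higher and 5 lower.

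The replacement core histones, which like H1f0 and H1fx can be made outside S phase from polyadenylated mRNA, did not move as one. Of the 8 tested, 5 were lower and 1 higher in co-culture on each surface. For all tested genes, 30.4% were lower and 28.7% higher on nanotopography, against 8.72% and 10.9% on control titanium. On nanotopography H2afx, the variant marked at DNA breaks, had -4.38 ± 0.26 (edgeR adjusted p = 2.90e-09), H2afj had -3.85 ± 0.21 (edgeR adjusted p = 6.54e-10) and H2afz, found at promoters, had -3.56 ± 0.28 (edgeR adjusted p = 4.36e-08). H3f3b, a gene for histone H3.3, had 1.28 ± 0.10 (edgeR adjusted p = 3.92e-08). On control titanium H2afx had -2.59 ± 0.24 (edgeR adjusted p = 1.17e-06) and H3f3b 0.79 ± 0.10 (edgeR adjusted p = 2.78e-05). After the correction, 6 of the 8 were lower and 1 higher in co-culture on nanotopography (median -1.04). On control titanium 5 were then lower and 1 higher (median -0.75).

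**Figure D5:**
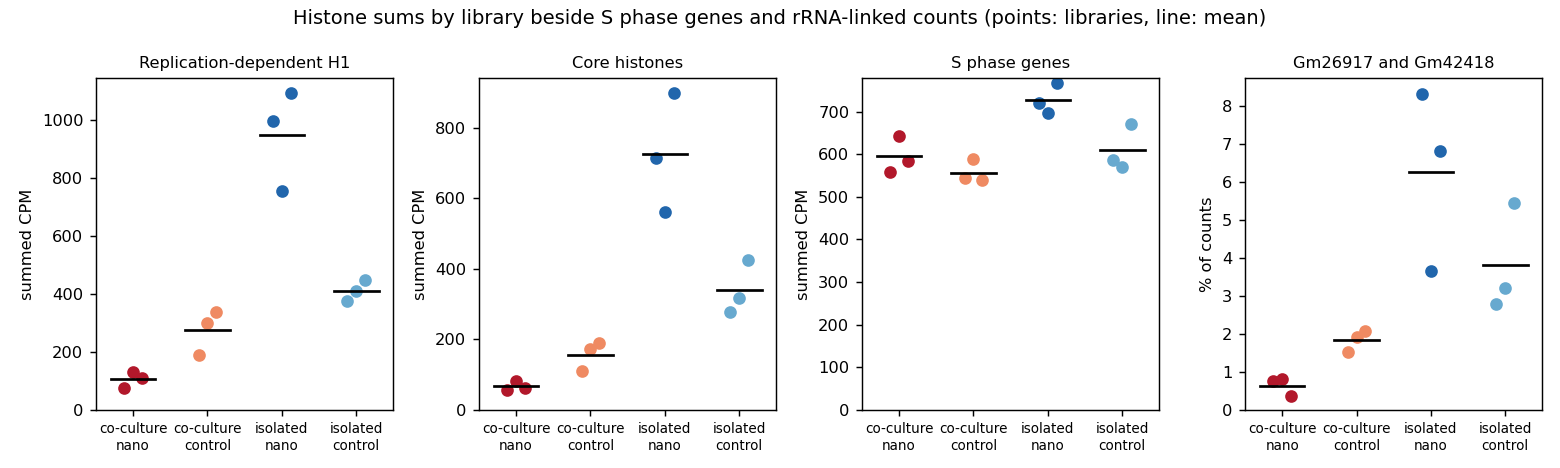
Summed level per library, in CPM on plain library totals, of Hist1h1a to Hist1h1e, of 61 core histone genes and of 26 S phase genes, and the percent of counts in the ribosomal-RNA-linked genes Gm26917 and Gm42418; points are libraries and lines are means (n = 3). Both histone sums and the ribosomal-RNA-linked share are lowest in Co-culture Nano and highest on average in Isolated Nano, while S phase sums run from 539.9 to 767 CPM over all 12 libraries.

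RNAs without a poly(A) tail that are not histones, counted without Gm26917 and Gm42418, numbered 9 tested genes, of which 7 were lower and none higher in co-culture on nanotopography (median log2 fold change -1.61). On control titanium 2 were lower (median -0.10). On nanotopography against control titanium 2 were higher in isolated cells (median 0.61) and 5 were lower in co-culture (median -1.30). For all tested genes, 30.4% were lower in co-culture on nanotopography and 8.72% on control titanium. On nanotopography 4.32% were higher in isolated cells and 23.3% lower in co-culture. After the correction the 4 counts of these RNAs were 6 lower, 1 lower with 2 higher (median 0.32), 0 and 3 lower. The part of these RNAs in the H1 results was not tested. When Gm26917, Gm42418 and the mitochondrial genes were left out of the fit, the log2 fold changes of the 4 H1 genes for co-culture on nanotopography were -3.48, -3.38, -2.96 and -2.50, as with them. Leaving rows out acts on other genes only through library scaling and the shared estimate of spread, so this is not a test of that part.

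The genes of proteins that carry H1 or process histone mRNA were called no more often in co-culture on nanotopography than the 59.2% of all tested genes, before correction for G+C content and length. Of 10 chaperones and binding partners of H1, 2 were higher and 2 lower in co-culture on nanotopography: Ptma (prothymosin α, an H1 chaperone) had -1.43 ± 0.13 (edgeR adjusted p = 1.69e-07), Tspyl1 had -0.54 ± 0.10 (edgeR adjusted p = 1.86e-04), and the H1 import receptor Ipo7 had 1.20 ± 0.15 (edgeR adjusted p = 4.28e-06). On control titanium Nap1l1 and Set, both histone chaperones, were lower in co-culture, at -0.56 ± 0.14 and -0.66 ± 0.17 (edgeR adjusted p = 0.00806 and 0.0125). There 8.72% of all tested genes were lower. After the correction, 3 of the 10 were higher and 6 lower in co-culture on nanotopography, beside 5260 of all 13340 tested genes called. These 10 genes were then called more often than all tested genes. Of 17 genes for the transcription and end processing of histone mRNA, 4 were higher and 5 lower in co-culture on nanotopography (0 and 7 after the correction), with Upf1, which takes part in histone mRNA decay, at -1.29 ± 0.11 (edgeR adjusted p = 9.20e-08) and the processing scaffold Sympk at -1.16 ± 0.16 (edgeR adjusted p = 1.01e-05).

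High-mobility-group proteins share binding sites on chromatin with H1, and 8 were tested. In co-culture, 5 were higher and none lower on nanotopography, beside 18.6% and 23.3% of all tested genes, or 3 higher and 1 lower after the correction. Hmga2 had 1.45 ± 0.20 on the log2 scale (edgeR adjusted p = 7.37e-05), Hmgn5 1.34 ± 0.34 (edgeR adjusted p = 0.00533) and Hmgn3 1.07 ± 0.25 (edgeR adjusted p = 0.00322). In isolated cells 1 was called, Hmgn5, at -1.21 ± 0.35 (edgeR adjusted p = 0.0409), a call lost after the correction. In co-culture on control titanium 1 was higher and 2 were lower, Hmgn3 at -1.34 ± 0.24 and Hmgn5 at -1.25 ± 0.34 (edgeR adjusted p = 8.87e-04 and 0.0158). For all tested genes, 5.39% were lower on nanotopography in isolated cells. In co-culture on control titanium 10.9% were higher and 8.72% lower.

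Finally, the genes most like each linker histone over the 12 libraries were found by Pearson's r of log2 CPM among 11022 protein-coding genes. For H1fx they included Trir (0.986) and Fkbp5 (0.982). For H1f0 likeness was weaker, with Ripor3 (0.930), Xaf1 (0.905) and Gng10 (0.900). Eif5a was among the 3 most alike for both Hist1h1b (0.993) and Hist1h1d (0.986). For Hist1h1c they were Cdc34, Cdc37 and Dap (0.994, 0.994 and 0.993), and for Hist1h1e the core histone gene Hist1h4f (0.991) came first. The 12 points fall into 4 groups and share library composition, so these values describe likeness across the groups.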

How the data were processed

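RNA from 12 MC3T3-E1 cultures was measured, and raw read counts per gene were deposited by the authors, 1 table per library. The submitters' processing notes name cutadapt, FastQC 0.63, STAR 2.4, HTSeq, DESeq2 and mm10, with no role or order. The annotation release, strand setting and library priming are not given in the sources used here. Because 11 of the 12 lists stop within a line, only the 52654 genes present in full throughout were used, 1621 genes of the longest were left out, and those used held at least 99.924% of counts.

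Identifiers without version were matched to GENCODE M21 symbols; all 52654 matched. Counts were fitted in R 4.3.3 with edgeR 4.0.16 (TMM, filterByExpr, 4 group means, quasi-likelihood F test), and limma 3.58.1 and DESeq2 1.42.0 were used for alternatives. P-values were adjusted by Benjamini-Hochberg over 13340 genes per comparison, and an adjusted p below 0.05 is a call. The biological coefficient of variation was 12.3%. The log scale used a prior count of 2, and SE is the absolute log2 fold change over the square root of F. List sums and shares use plain totals. Removal of each library's trend with G+C content and length used loess (span 0.3). Precision is set by 5866842 to 9207831 counts per library and 3 libraries per group; nothing beyond the word triplicates says that cultures were separate, so p-values measure the spread between these libraries.

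Members, lists and tests were chosen with earlier results of these data known. Named genes are the 7 members, the 3 protein-coding genes most correlated with each (some are not reported here), and up to 4 members of each list with the smallest p. Of the 7 member symbols, H1f0 matched RefSeq directly and the others matched through synonyms. The methods were checked on simulated counts. Apart from a G+C trend added for co-culture on nanotopography, far fewer genes were changed in them than were called here. Scaling and false calls with many changed genes were not otherwise checked.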

Additional observations from a re-analysis of the deposited data

Results flagged for a closer look

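The effect of co-culture differed between the surfaces for 4 linker histones, by the edgeR interaction test. The same test called 47.8% of all tested genes, 22.4% positive and 25.4% negative. The interaction, co-culture over isolated cells on nanotopography minus the same on control titanium, was -1.97 for Hist1h1b, -3.16 for Hist1h1c, -2.43 for Hist1h1d and -2.70 for Hist1h1e on the log2 scale. The change in co-culture was -2.50, -3.38, -2.96 and -3.48 on nanotopography for these genes in that order, and -0.53, -0.22, -0.53 and -0.78 on control titanium. Their nanotopography libraries are on opposite sides of the control titanium libraries in the 2 cultures, so that the surface effect has opposite signs. The surface calls were less stable. In isolated cells they depended on single libraries. In co-culture only that of Hist1h1c was left after correction for G+C content and length with RefSeq gene models.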

How the results depend on the processing

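Values were recomputed under 24 alternatives, 12 of which leave out 1 library each. The fit of only the groups compared gave none for the interaction, which needs all 4 groups, or for H1fx in the surface comparison in co-culture. Of 713 values of single genes 644 kept their direction and call, or, where described without a test, moved by less than the spread between replicates. The co-culture effect on nanotopography and the interaction of the 4 replication-dependent H1 genes kept direction and call under every alternative that gave a value. Leaving out 1 library moved the number of called genes to between 1436 and 2976 (co-culture, control titanium), 6725 and 8108 (co-culture, nanotopography), 3 and 2877 for the surface in isolated cells, 3274 and 5944 for the surface in co-culture and 5310 and 6957 for the interaction. A filter of at least 1 count gave 2100 genes for the surface in isolated cells, against 1295. With the G+C and length trend removed, the numbers were 5260, 727, 2445 and 2780 for co-culture on nanotopography, the surface in isolated cells, the surface in co-culture and the interaction, against 7892, 1295, 5599 and 6383. With RefSeq gene models, an alternative chosen after seeing the data, they were 5261, 728, 2442 and 2785. The correction gave 495 higher and 232 lower genes for the surface in isolated cells, against 576 and 719, and 1024 and 1756 for the interaction, against 2994 and 3389. Upper-quartile scaling gave 1166 higher and 1471 lower genes for co-culture on control titanium, against 1459 and 1163. Signs turned for H1f0 in the interaction (0.04 with the correction, 0.05 with the block as well, 0.03 with RefSeq gene models), for H1f0 on the surface in isolated cells (from -0.11 to 0.02 on leaving out 1 library, with 0.02, 0.00 and 0.02 without replicates 1 and 2 of Isolated Control and 3 of Isolated Nano) and for the co-culture effect of Hist1h1c on control titanium (0.07 with RefSeq gene models), none of them called. Causes were not tested.

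No steady pairing of libraries by replicate number was seen: of 18 same-number pairs, 6 had correlated deviations over 0.1 (range -0.391 to 0.303). Deviations from means of 3 libraries cannot show that pairing was absent. A replicate block gave 2459, 7757, 1240, 5453 and 6231 called genes for co-culture on each surface (first control titanium, then nanotopography), the surface in isolated cells and in co-culture and the interaction. It changed 1 member's call, Hist1h1b in co-culture on control titanium (-0.52, adjusted p = 0.0399). Block and correction together gave 5051, 489, 2185 and 2508 for the last 4. Depth limits Hist1h1a, and H1fx in co-culture, to a few counts per library.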
